A study of Mus musculus with 4 samples.

Results

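The Sec16 and COPII coat genes described here are the scaffold genes Sec16a and Sec16b, the GTPase genes Sar1a and Sar1b, and the inner coat genes Sec23a, Sec23b, Sec24a, Sec24b, Sec24c and Sec24d. They were taken by gene symbol and are 10 of the 54838 genes in each deposited file, with a count in every library. They were chosen by the authors' expected counts and TPM of these same libraries, compared between KO and NC and paralog by paralog, so their differences between the groups are a description and are not offered as a test of the family. The RNA came from the Hepa1-6 line, grown from a mouse liver carcinoma. The control group, NC, is wild type for Acvr2a, the gene of an activin type II receptor, and the KO group carries an Acvr2a knockout. Each group has 2 libraries, labelled NC 1, NC 2, KO 1 and KO 2. No treatment, dose or time is given for either group, and the KO cells are described as subclones without saying whether KO 1 and KO 2 are separate subclones or cultures of 1. Nothing in the labels says that libraries of a group came from separate cultures, so the spread between them may be technical.

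COPII vesicles carry newly made proteins out of the endoplasmic reticulum (ER). The small GTPase Sar1 is loaded with GTP at the ER membrane and recruits Sec23 with Sec24; Sec24 reads export signals on cargo and Sec23 speeds GTP hydrolysis by Sar1. A cage of Sec13 and Sec31 then bends the membrane, and Sec16 marks the exit sites where this happens. Liver cells use the route for albumin, transferrin, clotting factors and lipoproteins, and mammals keep several paralogs of most coat subunits.

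Library totals lay between 11597923 and 13910582 counts, of which 12510 genes passed the filter on low counts and 4741 of these passed an adjusted p of 0.05 between KO and NC (edgeR quasi-likelihood test), 2459 higher and 2282 lower. Higher genes were 51.9% of these calls and 67.7% of the 1819 calls that limma made on log2(TPM + 1). The Acvr2a counts of 81 and 108 in NC and 75 and 97 in KO did not separate the groups (log2 fold change -0.21, SE 0.20, adjusted p = 0.433), so the names KO and NC follow the labels. The 8 hepatocyte markers summed to 1150 and 1092 TPM in NC and 1357 and 1395 in KO: Alb, Afp, Trf, Apob and Hnf4a were well detected, Apoa1 was low, and Ttr and Serpina1a were at or below 0.33 TPM in every library. Within that list Alb and Trf were higher in both KO libraries, while Afp was at 167.4 and 160.2 TPM in NC and 74.1 and 72.9 in KO, and Hnf4a at 95.1 and 91.6 in NC and 54.5 and 47.5 in KO. Of the 4 marker lists for other cells, 3 had sums that did not overlap between the groups. Among all genes tested, counts scaled to library size did not overlap between the groups for 69.4%. The leukocyte markers came to 24.1 and 27.9 TPM in NC against 55.7 and 67.9 in KO, nearly all of it Cd68. Cd3e had 0 counts and Ptprc reached 0.04 TPM. The 4 cholangiocyte markers summed to 77.5 and 92.2 TPM in NC and 121.2 and 113.5 in KO, though Sox9 was at 25.9 and 32.2 in NC and 23.7 and 18.5 in KO. The 5 fibroblast markers summed to 1033 and 1095 TPM in NC and 1233 and 1239 in KO, nearly all of it Dcn. Endothelial markers summed to 0.36 and 0.20 TPM in NC and 0.12 and 0.48 in KO, so the groups overlapped. The part of such differences in the values below was not tested, and in bulk RNA fewer cells of a type and less RNA per cell cannot be told apart.

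The largest difference among the coat genes was in Sec16b, which was 2.74-fold lower in KO. Of the 10 genes, all of which passed the filter, 3 passed the adjusted p of 0.05 higher in KO (Sec23a, Sec16a and Sec24d; 19.7% of all genes tested did so) and 2 passed it lower in KO (Sec16b and Sec23b; 18.2% of all genes tested). That is 5 of 10, where 37.9% of all genes tested passed in either direction. The log2 fold changes of the 10 ran from -1.46 to 0.51 with a median of 0.096, and the median over all genes tested was -0.0037. In the Sec16 and Sec23 families the paralogs moved in opposite directions, and Sar1a, Sar1b, Sec24a, Sec24b and Sec24c did not pass. CPM values, counts scaled to library size with TMM factors, did not overlap between the groups for 7 of the 10 genes, against 69.4% of all genes tested.

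**Figure D1:**
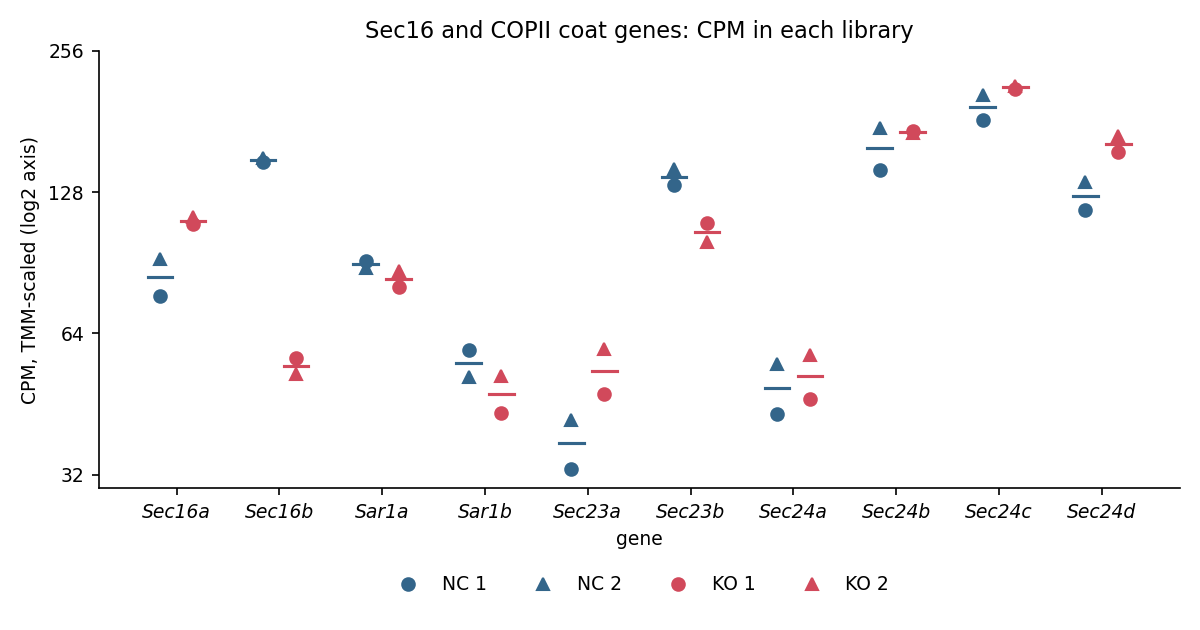
CPM (log2 axis) of the 10 genes in NC 1, NC 2 (blue) and KO 1, KO 2 (red), with a bar at each group mean of 2 libraries. Sec16b lies near 150 CPM in both NC libraries and between 52.3 and 56.8 CPM in both KO libraries.

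The start regions of the genes were compared because several of these genes are known targets of ER-stress and CREB3-family transcription factors, which bind ACGT-centred elements. Windows of 300 bases, 250 before and 50 after each RefSeq start site (GRCm38.p6), were searched on both strands. The UPR element TGACGTGG was present for Sec16b, Sec23a and Sec24d, which is 3 of 10 genes against 0.714% of 27025 gene symbols with a window. The letters GACGTGGCA overlap the UPR element by 7 bases and were chosen after the windows had been read. They were present for Sec16b, Sec24d, Sar1a, Sec23a and Sec24c, 5 of 10 genes. That count follows from the choice of letters, so it is a description and no measure of excess. Over all 27025 symbols, tested for expression or not, the share was 0.215%. Each site is given within 30 bases, 5′ to 3′ on the gene's strand, with the matching letters in capitals; in Sar1a the match is on the other strand and appears as its reverse complement.
Sec16b: ctgtgtggctGACGTGGCAcggcagtttgc
Sec24d: ccgggcgcctGACGTGGCActagcaaccca
Sec23a: cctcccctttGACGTGGCAgaggcggcacc
Sec24c: gcctaaggccGACGTGGCAgaaggagtggc
Sar1a: tgacagacgcTGCCACGTCttaccccgctt

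These lines are chr1:157506743-157506772 on the plus strand, chr3:123267461-123267490 on the plus strand, chr12:59011991-59012020 on the minus strand, chr14:20674235-20674264 on the plus strand and chr10:61680116-61680145 on the plus strand. Positions are counted from the RefSeq start site, with bases before it negative. The capitals begin at -43 in Sec16b, -25 in Sec24d, -76 in Sec24c, -159 in Sar1a and 7 in Sec23a. GENCODE starts Sec16b further upstream at 157506728 and Sec24d at 123267455, so their printed lines lie inside the GENCODE genes. The set with the letters holds the coat gene with the largest fall, Sec16b, and the rises Sec23a and Sec24d, as well as Sar1a and Sec24c, which did not pass. Sec16a and Sec23b passed the expression test without the letters in their windows. The ER stress elements ERSE (0.137% of symbols) and ERSE-II (0.0444%) and the CRE letters TGACGTCA (2.03%) were found for 0 of the 10 genes. For Sec24a and Sec24b the whole window lay inside the GENCODE gene. Their RefSeq starts are 51756834 and 130060907, and their GENCODE 5′ ends are 51763634 and 130061553. Those 5′ ends were not searched, so the motif counts out of 10 do not cover them. A further 53 genes hold GACGTGGCA, of which 28 were tested. Of these 3 were higher and 6 lower past 0.05 (19.7% and 18.2% of all genes tested), with a median log2 fold change of 0.030. The outer coat gene Sec13 (-0.28) and the cargo receptor gene Tmed3 (-0.00049) were among them, named after their values were seen. A match of letters is a description of the sequence and does not show that a factor binds there.

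Sec16b (ENSMUSG00000026589.14, chromosome 1, 157506728 to 157568425, plus strand, GRCm38) encodes the shorter of the Sec16 paralogs, with a longest annotated coding sequence of 3153 bases against 7131 for Sec16a. It was counted 1685 and 2094 times in NC 1 and NC 2, and 748 and 707 times in KO 1 and KO 2. Scaled to CPM, NC 1 and NC 2 stood at 148.2 and 151.2, KO 1 and KO 2 at 56.8 and 52.3. The libraries within each group lay close together and the groups were far apart. Its window holds both the UPR element and the longer letters printed above. The log2 fold change was -1.46 (SE 0.095), and 58 of the 12510 genes tested had a lower one. TPM, the authors' length-scaled unit, gave the same picture, with 38.2 and 40.9 in NC and 15.9 and 14.1 in KO. Its deposited length, the mean length of its transcripts weighted by their estimated abundance, was between 4364 and 4370 bases in all 4 libraries. Sec16b was the 1 coat gene that still passed 0.05 when limma was run on filtered log2 TPM values.

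Sec16a (ENSMUSG00000026924.17, chromosome 2, 26409431 to 26445216, minus strand), the large scaffold of ER exit sites, moved the other way. NC 1 and NC 2 had 873 and 1277 counts of it, KO 1 and KO 2 had 1443 and 1527, or 76.8 and 92.2 CPM against 109.5 and 113.0 CPM. Both KO libraries were above both NC libraries, with NC 1 the lowest of all. The log2 fold change was 0.39 (SE 0.098), 1.31-fold higher in KO. Without NC 1 it was 0.26 and no longer passed. In TPM the groups overlapped, at 18.4 and 27.3 in NC against 30.9 and 22.6 in KO. The deposited length of Sec16a was 4674 and 4010 bases in NC and 4352 and 5788 bases in KO, so KO 2 combined the highest count with the longest assigned transcripts and a low TPM. The annotated transcripts of the gene run from 430 to 8797 bases.

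The make-up of the Sec16 pool was compared within each library, on the TPM scale because that allows for length. Sec16a made up 32.5% and 40.1% of the Sec16 TPM in NC 1 and NC 2, and 66.0% and 61.6% in KO 1 and KO 2. On this scale Sec16b was thus the more abundant paralog in both NC libraries and the less abundant in both KO libraries. The deposited Sec16a lengths, 4010 to 5788 bases, are below those of its longest coding transcripts, 8737 and 8797 bases. The order of the paralogs at those lengths was not tested. The log2 ratio of Sec16a to Sec16b went from -0.82 ± 0.33 in NC to 0.82 ± 0.19 in KO (SD, n = 2). The summed Sec16 TPM was 56.6 and 68.2 in NC and 46.8 and 36.7 in KO.

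**Figure D2:**
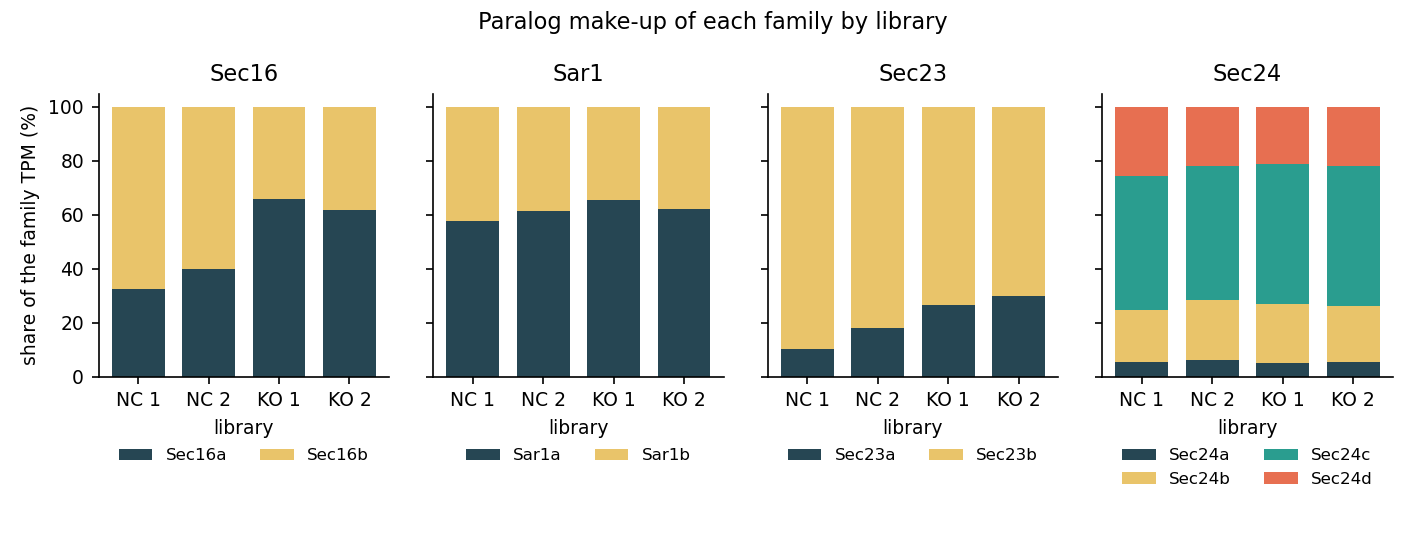
Share of each paralog in the summed TPM of its family, as stacked bars for NC 1, NC 2, KO 1 and KO 2. Sec16a goes from at most 40.1% of the Sec16 TPM in NC to at least 61.6% in KO, and Sec23a from at most 18.2% of the Sec23 TPM to at least 26.5%.

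The Sec23 paralogs also passed the test in opposite directions. Sec23a (ENSMUSG00000020986.13, chromosome 12, 58958383 to 59012017, minus strand) encodes the paralog known for its role in skeletal development. It was counted 374 and 580 times in NC and 625 and 799 times in KO, or 32.9 and 41.9 CPM against 47.4 and 59.2 CPM. The groups did not overlap, but the libraries within each group were also far apart. The log2 fold change was 0.51 (SE 0.12), the highest of the 10 genes, and it was 0.34 without NC 1 and 0.34 without KO 2. Exons of Sec23a share 431 bases with Gm17529 on the opposite strand, which had at most 2 counts in any library.

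Sec23b (ENSMUSG00000027429.16, chromosome 2, 144556229 to 144590749, plus strand), the paralog whose human mutations cause a dyserythropoietic anaemia, was counted 1508 and 1987 times in NC and 1449 and 1352 times in KO. Scaled to CPM it was at 132.6 and 143.5 in NC and at 110.0 and 100.1 in KO. Every NC library was above every KO library. This is a log2 fold change of -0.40 (SE 0.094), 1.32-fold lower in KO. It remained the main Sec23 paralog in all 4 libraries, at 78.2 and 87.9 TPM in NC and 71.6 and 67.9 TPM in KO. The corresponding Sec23a values were 9.04 and 19.5 TPM in NC and 25.8 and 28.7 TPM in KO.

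On that scale Sec23a made up 10.4% and 18.2% of the Sec23 TPM in NC and 26.5% and 29.7% in KO. The log2 ratio of Sec23a to Sec23b was -2.64 ± 0.67 in NC and -1.36 ± 0.16 in KO (SD, n = 2), a difference of 1.29. The summed Sec23 TPM was 87.2 and 107.4 in NC and 97.4 and 96.6 in KO, so the KO sums lay inside the NC range. The size of this shift depended on the lengths that the quantification assigned. The deposited length of Sec23a was 4109 bases in NC 1, which is that of its longest annotated transcript, and 2639, 2371 and 2528 bases in NC 2, KO 1 and KO 2. With 1 length per gene, averaged over the 4 libraries, the difference in log2 ratio was 0.91, and the groups still did not overlap. The same change of scale gave 1.86 in place of 1.64 for Sec16a to Sec16b.

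**Figure D3:**
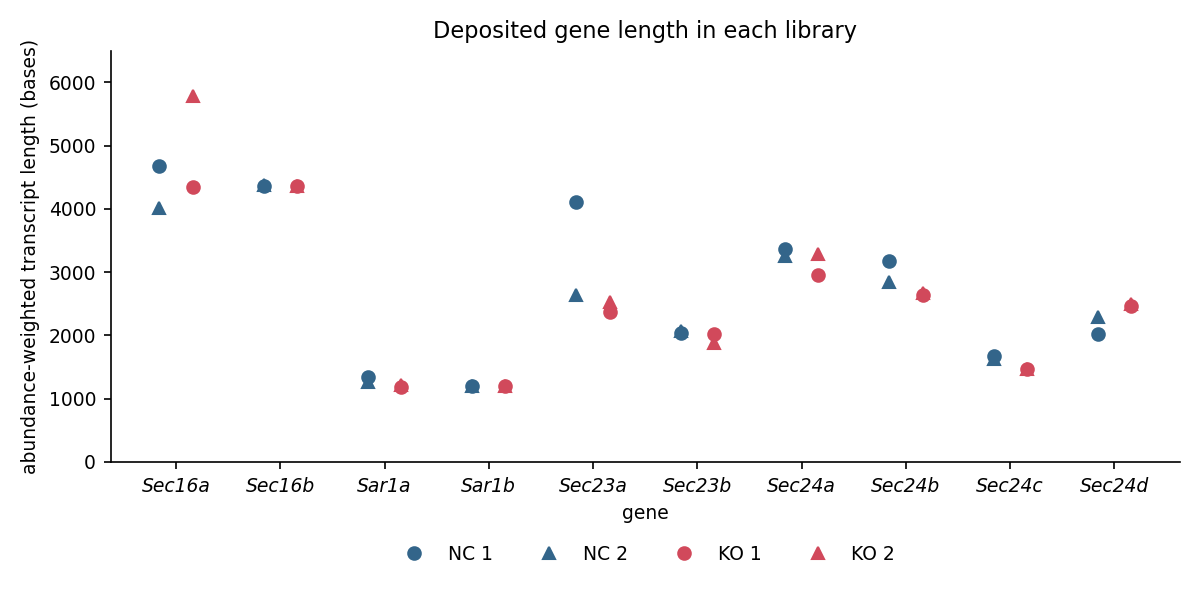
Abundance-weighted transcript length in bases that the deposited files assign to each gene in NC 1, NC 2 (blue) and KO 1, KO 2 (red). Sec16b and Sar1b keep nearly 1 length in all libraries, while Sec23a is at 4109 bases in NC 1 and between 2371 and 2639 in the others.

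Sar1a and Sar1b encode the GTPase that starts coat assembly, and Sar1b is needed for export of large lipoproteins. Sar1a (ENSMUSG00000020088.10, chromosome 10, 61680299 to 61693297, plus strand) was at 91.3 and 88.4 CPM in NC and 80.4 and 87.1 CPM in KO. The gap between the groups was smaller than the distance between the KO libraries. The log2 fold change was -0.10 (SE 0.094, 95% interval -0.29 to 0.091), and on the log2(TPM + 1) scale it turned to 0.098. Sar1b (ENSMUSG00000020386.5, chromosome 11, 51763687 to 51791925, plus strand) was at 59.0 and 51.6 CPM in NC and 43.3 and 51.9 CPM in KO. The groups overlapped, and the log2 fold change was -0.21 (SE 0.11, 95% interval -0.43 to 0.0070). Without KO 2 the value was -0.35 and passed 0.05. Sar1a made up 57.6% and 61.5% of the Sar1 TPM in NC and 65.4% and 62.1% in KO. Summed Sar1 TPM was 154.98 ± 1.75 in NC and 154.95 ± 5.02 in KO (SD, n = 2). The log2 ratio of Sar1a to Sar1b was 0.26 higher in KO on the TPM scale and 0.12 higher, with overlapping groups, with 1 length per gene.

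The 4 Sec24 genes encode the cargo-binding subunits. Sec24a and Sec24b form one subclass and Sec24c and Sec24d the other. Sec24d (ENSMUSG00000039234.11, chromosome 3, 123267455 to 123365641, plus strand), whose human mutations cause a brittle bone disorder, was the one that passed the test. It was counted 1330 and 1859 times in NC and 2053 and 2279 times in KO, or 117.0 and 134.2 CPM against 155.8 and 168.7 CPM. The KO libraries were both above the NC libraries. The log2 fold change was 0.37 (SE 0.096), and without NC 1 it was 0.27 and no longer passed.

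Sec24c (ENSMUSG00000039367.11, chromosome 14, 20674308 to 20694852, plus strand) had the highest level of the 10 genes, with 182.4 and 205.6 CPM in NC and 212.3 and 215.7 CPM in KO. Its groups did not overlap, but KO exceeded NC by only 0.14 on the log2 scale (SE 0.092, 95% interval -0.048 to 0.33), which did not pass. Exons of Sec24c share 214 bases with the antisense gene 6230400D17Rik, which had 23 to 30 counts per library. Sec24b (ENSMUSG00000001052.15, chromosome 3, 129982759 to 130061553, minus strand) was at 142.7 and 175.2 CPM in NC and 172.8 and 171.1 CPM in KO, so NC 2 was the highest library. Its log2 fold change was 0.11 (SE 0.098, 95% interval -0.089 to 0.31), and -0.033 without NC 1. Sec24a (ENSMUSG00000036391.16, chromosome 11, 51692264 to 51763634, minus strand) was at 43.0 and 55.0 CPM in NC and 46.3 and 57.7 CPM in KO. Its groups overlapped almost fully (log2 fold change 0.080, SE 0.12, 95% interval -0.16 to 0.32). The value was -0.088 without NC 1 and -0.089 without KO 2.

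Within the Sec24 family Sec24c was the highest and Sec24a the lowest by TPM in each of the 4 libraries, and Sec24b and Sec24d overlapped in both groups. Sec24c took 49.8% and 49.6% of the Sec24 TPM in NC and 52.1% and 51.8% in KO. Sec24d took 25.7% and 21.8% in NC and 21.1% and 21.9% in KO, Sec24b between 19.1% and 22.5% over all libraries, and Sec24a between 5.13% and 6.09%. The Sec24d count thus rose while its TPM share did not, and its deposited length was 2030 and 2295 bases in NC and 2462 and 2499 bases in KO. The deposited lengths of Sec24c were 1679 and 1628 bases in NC and 1471 and 1463 bases in KO. Those of Sec24b were 3169 and 2846 bases in NC and 2644 and 2664 bases in KO, and those of Sec24a overlapped between the groups. With 1 length per gene the sign of the small differences turned: KO minus NC was 2.88 percentage points for the Sec24d share in place of -2.22, and -1.54 points for the Sec24c share in place of 2.25. The summed Sec24 TPM was 270.6 and 334.4 in NC and 384.7 and 378.3 in KO. The part of the deposited lengths in that difference was not tested.

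**Figure D4:**
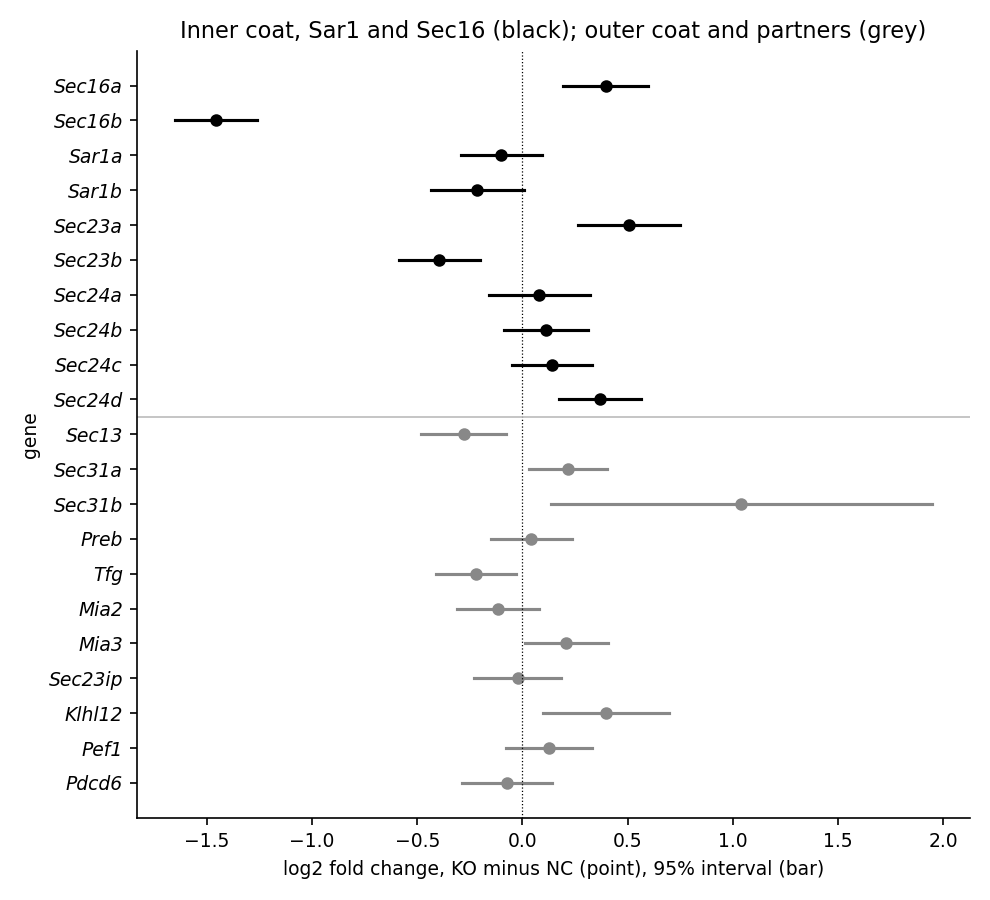
Log2 fold change of KO over NC (points) with 95% intervals (bars) from the fit to all 12510 genes, for the 10 Sec16, Sar1 and inner coat genes (black) and the 11 outer coat and partner genes (grey). Sec16b stands at -1.46, and Sec31b, with a mean of 1.03 CPM in NC, has the widest bar.

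Ordered by TPM over the whole set, Sec24c was highest in both groups (150 ± 22.0 in NC and 198.1 ± 3.03 in KO, SD, n = 2) and Sar1a second (92.3 ± 5.36 and 98.8 ± 0.41). The lowest gene was Sec23a in NC (14.3 ± 7.41) and Sec16b in KO (15.0 ± 1.30). In NC the neighbours Sec24d, Sec24b and Sar1b overlapped in turn, as did Sec16a, Sec24a and Sec23a, so their order is not resolved. The overlapping neighbours in KO were Sec24d with Sec24b and Sec23a with Sec16a. NC 1 had a lower CPM than NC 2 for 8 of the 10 genes, and KO 1 a lower one than KO 2 for 7 of 10. For the KO pair the share over all genes tested was not computed, so its count has no comparison. Among all genes tested NC 1 was the lower for 6227 of 12510. The part of this difference in the KO to NC values was not tested beyond leaving NC 1 out.

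Paralogs could in principle exchange reads in the quantification. No stretch of 50 bases in the annotated transcripts of Sec16a, Sec16b, Sar1a, Sar1b, Sec24b or Sec24d occurs in a transcript of any other gene, in either orientation. The share of such stretches found elsewhere was 7.86% for Sec23a, all of them in the antisense gene Gm17529, and between 0.779% and 1.83% for Sec23b, Sec24a and Sec24c. Sec23a was the 1 coat gene of 10 with a deposited count more than 0.001 from a whole number in any library. The same held for 3931 of 20579 genes with a count.

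The rest of the COPII machinery was followed with a list of 11 outer coat, exchange factor and exit-site genes, all tested. Of these 1 was higher and 1 lower past 0.05 (19.7% and 18.2% of all genes tested). The list had a median log2 fold change of 0.042. Sec13, the outer coat scaffold subunit, fell from 84.4 ± 5.95 to 69.4 ± 6.90 CPM (SD, n = 2; log2 fold change -0.28, SE 0.099, adjusted p = 0.0269). Klhl12, a ubiquitin ligase adaptor that acts on Sec31, rose from 13.1 ± 0.92 to 17.3 ± 0.60 CPM (log2 fold change 0.40, SE 0.15, adjusted p = 0.0316). Both calls were lost with DESeq2, in the TPM fits, without NC 1 and without KO 2, and that of Sec13 also with no scaling factors. Sec31a, the other cage subunit, was at 243.2 ± 6.89 and 282.4 ± 15.3 CPM (log2 fold change 0.22, adjusted p = 0.0609), and its low paralog Sec31b at 1.03 ± 0.03 and 2.13 ± 1.08 CPM (1.04, adjusted p = 0.0584). Preb, the exchange factor that loads Sar1 with GTP, had a log2 fold change of 0.042 (SE 0.094), and its exons share 1575 bases with Abhd1 on the opposite strand. The exit-site organiser Tfg (-0.22), the collagen export receptors Mia2 (-0.12) and Mia3 (0.21), and Sec23ip (-0.023), Pef1 (0.13) and Pdcd6 (-0.075) did not pass 0.05.

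Cargo receptors bind secretory proteins and hand them to the Sec24 subunits. Of 22 listed, 21 were tested, 3 were higher and 6 lower past 0.05 (19.7% and 18.2% of all genes tested). The list had a median log2 fold change of -0.097. The p24 family genes Tmed6 and Tmed5 fell by 0.78 and 0.77 on the log2 scale (adjusted p = 9.30e-05 and 0.000175), and the cornichon genes Cnih4 and Cnih1 fell by 0.47 and 0.44. Kdelr3, one of the receptors that return ER residents, rose (log2 fold change 0.34, SE 0.098), and its paralog Kdelr1, named after its value was seen, fell (-0.34, SE 0.098). Both calls were lost in the TPM fits, that of Kdelr3 also without NC 2 and that of Kdelr1 without KO 1. The Tmed5 call was lost in the TPM fits, and those of Tmed6, Cnih1 and Cnih4 only in the unfiltered one of the 15 alternatives. On the other strand Tmed5 shares 395 exon bases with Mtf2, Cnih1 229 with Gm48933 and Kdelr3 only 4 with Ddx17. Lman1, the receptor of clotting factors, was at 245.6 ± 1.68 and 232.2 ± 9.63 CPM (SD, n = 2; log2 fold change -0.081, SE 0.090), singled out after its value was seen.

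In the list of 20 tethering and fusion genes 1 was higher and 3 lower past 0.05 (19.7% and 18.2% of all genes tested). Its median was -0.040. The GTPase gene Rab1b, which acts on vesicles as they leave the ER, fell from 227.5 ± 17.8 to 170.9 ± 6.94 CPM (SD, n = 2; log2 fold change -0.41, SE 0.093). Golga2, a Golgi tether, rose (0.35), and the TRAPP subunits Trappc5 (-0.35) and Trappc2l (-0.37) fell. The Trappc2l call held under 5 of 15 alternatives and was lost without any 1 of the 4 libraries, with DESeq2, with no or upper-quartile scaling and in the TPM fits. The Trappc5 call was lost with DESeq2, in the TPM fits, without NC 2 and without KO 1, that of Golga2 in the TPM fits and without NC 1, and that of Rab1b in the TPM fits. The COPI coat, which returns proteins to the ER, had 2 of 14 genes higher and 2 lower (19.7% and 18.2% of all genes tested). Its median was 0.023. Copz2, a COPI zeta subunit paralog, rose from 29.1 ± 1.02 to 69.3 ± 11.1 CPM (SD, n = 2; log2 fold change 1.25, SE 0.11), while its paralog Copz1 was at 173.7 ± 14.2 and 170.5 ± 8.28 CPM (log2 fold change -0.026, SE 0.094; singled out after its value was seen). Arfgap2 (-0.52) and Cope (-0.30) fell and Gbf1 (0.27) rose. All 3 calls were lost in the TPM fits, that of Cope also without NC 1 and without KO 2, and that of Gbf1 without NC 1, without NC 2 and without KO 1. On the other strand Arfgap2 shares 1380 exon bases with 1110051M20Rik and Gbf1 296 with Gm16726. Of the tethering genes, Trappc5 shares 492 with Gm45231 and Golga2 98 with Swi5, also on the other strand.

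**Figure D5:**
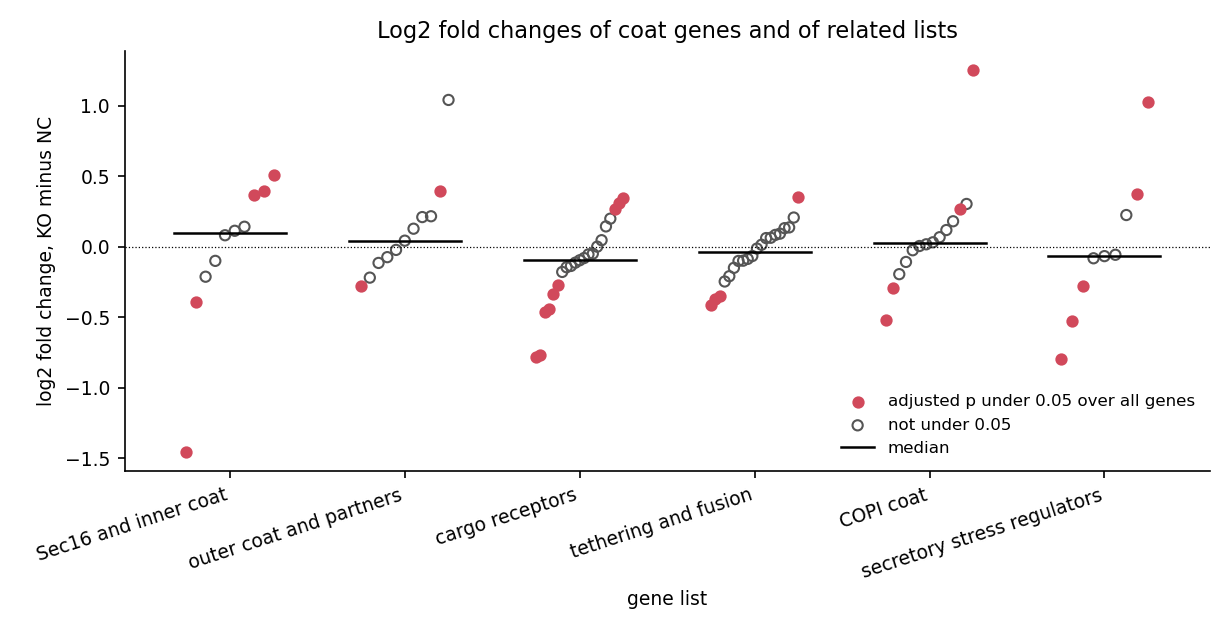
Log2 fold change of KO over NC for each tested gene of the Sec16 and inner coat set and of 5 related lists, with filled points for an adjusted p under 0.05 over all genes tested and a bar at each median. The medians lie between -0.097 (cargo receptors) and 0.096 (Sec16 and inner coat), and Sec16b at -1.46 is the lowest point plotted.

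Regulators of secretory capacity were the last list, with 9 of 11 tested and a median of -0.068. Of these 2 were higher and 3 lower past 0.05 (19.7% and 18.2% of all genes tested). Atf6b, a membrane-bound stress factor, fell from 75.1 ± 2.87 to 43.2 ± 3.04 CPM (SD, n = 2; log2 fold change -0.80, SE 0.0995), and the ER stress sensor gene Ern1 fell (-0.53, SE 0.10). Creb3l2, a factor known to act on Sec23a in cartilage, rose from 94.7 ± 13.0 to 123.1 ± 14.7 CPM (SD, n = 2; log2 fold change 0.38, SE 0.10, adjusted p = 0.00538), and the call was lost without NC 1, without KO 2 and in the TPM fits (adjusted p up to 0.242). Its relative Creb3l1 rose from 1.05 ± 0.36 to 2.17 ± 0.39 CPM (1.02, adjusted p = 0.0497), a call lost under 6 of 13 alternatives that tested it. The processing protease gene Mbtps1 fell (-0.28), a call lost without NC 2, without KO 2 and in the TPM fits, and the Ern1 call was lost in the TPM fits. Xbp1 (0.22, adjusted p = 0.0564) and Atf6 (-0.068), named after their values were seen, did not pass.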

How the data were processed

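RNA-seq was read from 4 deposited files, 1 per library, with 1 row per gene. Per the file headers, the authors deposited unscaled expected counts, which are estimates. TPM and FPKM were also deposited, both scaled for length and depth, beside lengths and effective lengths that vary by library. The submitters' processing notes name FastQC, STAR, RSEM and DESeq2 with GRCm38 (mm10); versions, annotation release and strand setting are not given in the sources used here. Libraries were made with a directional kit from TRIzol-extracted, DNase-treated RNA, per the labels' protocols.

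Expected counts were rounded (totals changed by at most 0.000188%) and fitted with edgeR 4.0.16 (R 4.3.3): filterByExpr, TMM, and the quasi-likelihood test with the group as the only term over all 4 libraries. The p-values of all 12510 genes tested were adjusted by Benjamini-Hochberg and called under 0.05. Each SE was derived from the weights of the fit with its moderated quasi-dispersion (25.8 prior degrees of freedom), so intervals reflect counting noise and these libraries alone. Coordinates are GENCODE M21 (GRCm38), matched by gene ID; all 10 genes had a RefSeq promoter window. Paralog shares and ratios use TPM within a library. The members and lists were chosen with earlier results of these data known. Named genes are the 10 members, Acvr2a, all outer coat genes, up to 5 genes per list with the lowest p past 0.05, and the 3 genes nearest in pattern to the members with the highest and lowest fold change; others are marked. Alternatives were other scalings, DESeq2 1.42.0, a robust fit, other filters, limma 3.58.1 on log2(TPM + 1 or 0.1), each library left out, and the replicate number as a block.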

Additional observations from a re-analysis of the deposited data

How the results depend on the processing

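The same 5 coat genes passed 0.05 with RLE, upper-quartile or no scaling factors, with DESeq2, with a robust fit, with no or a stricter count filter and with the replicate number as a block. The labels do not say that replicate numbers pair the libraries, and deviations of same-numbered libraries correlated at -0.0116 over 12510 genes. The fit with the replicate block called 5006 genes and changed no call of the coat genes. Without 1 library the calls over all genes were 3507 to 4488 (1831 to 2312 higher, 1656 to 2176 lower), a lone sample being assumed to vary like the others. Coat genes called were then 1 to 3 higher and 2 to 3 lower, with a median from -0.059 to 0.25; the low ends of the higher calls came without NC 1. In such fits Sec24a ranged from -0.089 (without KO 2; -0.088 without NC 1) to 0.27 (without NC 2), and Sec24b from -0.033 (without NC 1) to 0.27 (without NC 2).

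TPM moved most values, and the counts behind each TPM value do not enter those fits. On log2(TPM + 1), log2(TPM + 0.1) and unfiltered log2(TPM + 1), limma called 1819, 1686 and 0 genes, with 1231, 1144 and 0 higher and 588, 542 and 0 lower. At an unadjusted p under 0.05 the last had 4506 of 20640 genes, and edgeR with no filter had 6352 of 20579. After adjustment edgeR with no filter called 4730. Coat genes called were 0, 0 and 0 higher and 1, 1 and 0 lower, their median was 0.21, 0.22 and 0.21, and Sar1a turned to 0.098, 0.099 and 0.098. In the same order the outer coat list had 1, 0 and 0 calls, cargo receptors 3, 3 and 0, tethering 0, 0 and 0, COPI 1, 1 and 0, and stress regulators 1, 1 and 0. The medians were 0.077 and 0.11 for the last 2 fits of the outer coat list, -0.038 in all 3 for cargo receptors, 0.060, 0.061 and 0.060 for tethering, 0.091, 0.093 and 0.091 for COPI, and -0.022, -0.022 and -0.018 for regulators. DESeq2, which called 3217 genes, made 0 outer coat and 2 tethering calls, and the robust fit made 4 outer coat calls. With no scaling factors the cargo receptor median was -0.064.

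Leaving out 1 library gave 0 to 5 outer coat, 5 to 7 cargo receptor, 2 to 3 tethering, 2 to 4 COPI and 2 to 5 regulator calls. Their medians ran from 0.0031 to 0.15, -0.15 to -0.057, -0.086 to 0.0052, -0.0029 to 0.055 and -0.11 to -0.022. The log2 ratio difference ran from 1.40 to 1.87 for Sec16a to Sec16b and from 0.81 to 1.76 for Sec23a to Sec23b. With 1 length per gene, chosen after seeing the data, the share difference turned to 2.88 points for Sec24d and -1.54 points for Sec24c. The cause of these changes was not tested. With 2 libraries a group, changes as small as those of Sar1a, Sec24b or Sec24c are not resolved.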

Other observations

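The genes whose pattern over the 4 libraries lay nearest to that of Sec16b, by Euclidean distance between mean-centred log2 CPM values, were Atp10a (distance 0.12), Icam2 (0.13) and Pop1 (0.18). Atp10a, a phospholipid flippase gene, was at 200.7 CPM in NC and 78.9 in KO, and Pop1, an RNase P and MRP subunit gene, at 135.4 and 52.5 CPM. Icam2 was at 2.49 and 0.75 CPM. For Sec23a the nearest were Gstm7 (0.015), Megf11 (0.036) and Hsf4 (0.065), all under 6 CPM on average in both groups. All of these distances rest on the same 4 libraries, and nothing about shared function or control was tested.

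The tested genes nearest to Sec16b on chromosome 1, named for their position and not by the rule for named genes, had smaller differences than its log2 fold change of -1.46. Rasal2, 94133 bases away, was at -0.38 (SE 0.12), 2810025M15Rik, 86492 bases away, at -0.45 (SE 0.14), and Cop1, 1663895 bases away, at -0.30 (SE 0.097). Pappa2, a low gene 1143302 bases away, was at 1.02 (SE 0.61). In GENCODE Sec24a and Sar1b lie head to head on chromosome 11 with 5′ ends 53 bases apart. Their log2 fold changes were 0.080 (SE 0.12) and -0.21 (SE 0.11). The RefSeq start site of Sec24a, 51756834, lies inside the GENCODE gene, so its promoter window was not at that 5′ end.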
